A study of Danio rerio with 5 samples.

Results

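Cadherins and protocadherins, calcium-dependent adhesion proteins of the cell surface, were followed in zebrafish vagus motor neurons photoconverted at either end, anterior or posterior, of the vagus motor nucleus. Members were chosen by name alone: every counted gene whose symbol, in lower case, begins with cdh and a digit or with pcdh. This gave 84 of the 31953 genes counted, of which 27 were cdh genes and 57 were protocadherins. Genes without a symbol (5832 of the rows) could not be matched by this rule. All groups were Tg(isl1:Kaede) embryos of 28 to 30 hours after fertilisation, in which isl1-expressing neurons carry Kaede, a protein that light turns from green to red. The anterior group had 2 libraries, named B and G here, and the posterior group had 3, named B, G and R, each made from 100 photoconverted cells picked by hand. The transgene marks isl1-expressing cells in general, and the labels do not say how many embryos gave the cells of a library or whether libraries came from separate embryos. The p-values below therefore measure the spread between these libraries, which may be technical.

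Classical cadherins bind the same or a related cadherin on the neighbouring cell and are joined to actin inside the cell by catenins. Type I members such as N-cadherin hold neural tissue together, and type II members are expressed in combinations that, in chick and mouse, take part in sorting motor neurons into pools. Protocadherins lack the catenin-binding tail. Solitary delta-protocadherins are expressed by particular sets of neurons, while clustered protocadherins are made from arrays of alternative first exons, from which, in mouse, single neurons use a few, in a largely random choice, to mark themselves.

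Reads assigned to genes numbered 14932562 to 20088585 per library, and 8945 to 11931 genes had more than 3 counts, with posterior B the lowest. Levels are given as CPM, counts scaled to a common library size after trimmed-mean (TMM) normalisation. They are not divided by transcript length, so levels are compared between libraries and not between genes. A count of 3 corresponded to 0.148 to 0.193 CPM, and counts of 3 or less are treated as not detected; this limit covers counting error only. The motor neuron gene ISL1, whose regulatory sequence drives the transgene, was detected in all 5 libraries, at 1794 to 2366 CPM. Of the 10 motor neuron markers listed, ISL1 among them, 9 were detected in at least 1 library and 6 in all 5. Their summed level was 6038 to 7539 CPM per library. The marker CHAT had 0 counts in posterior B, and phox2ba had 0 in every library. In a pool of cells, fewer cells of a type and less RNA per cell cannot be told apart.

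Of the 84 members, 56 had more than 3 counts in at least 1 library, 3 had 1 to 3 counts at most in any library and 25 had no count at all. The classes differed in how much of each was seen. Among cdh genes 9 of 27 were detected in at least 1 library, and among protocadherins 47 of 57, of which 31 were clustered and 16 solitary. Detection in all 5 libraries was found for 17 members, 2 of them cdh genes (CDH2 and cdh6) and 15 protocadherins. Of all 31953 genes, 16088 were detected in at least 1 library and 6039 in all 5. Anterior B had 39 members over 3 counts, anterior G 49, posterior B 23, posterior G 38 and posterior R 40. Posterior B was lowest and anterior G highest, and the same libraries were lowest and highest for all genes, with 8945 and 11931 genes over 3 counts. The part of this in the member counts was not tested.

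**Figure D1:**
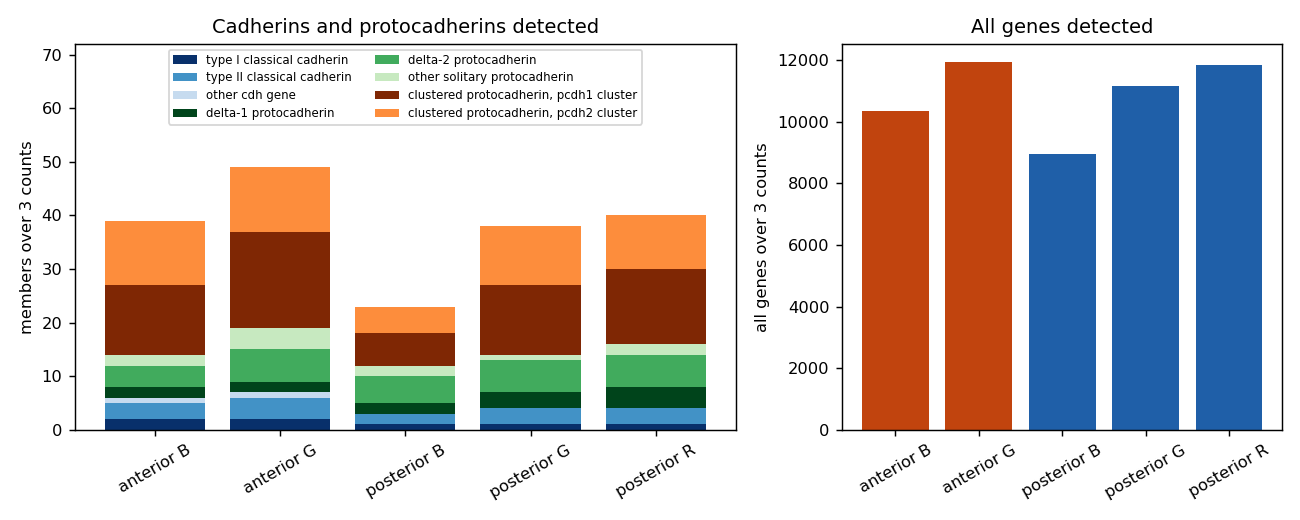
Left, the number of members with more than 3 counts in each library, stacked by subclass; right, the number of all genes over 3 counts in the same libraries (red anterior, blue posterior). Posterior B has the shortest bar in both panels (23 members, 8945 genes) and anterior G the tallest (49 members, 11931 genes).

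Among type I classical cadherins, CDH2 (ENSDARG00000018693), which encodes N-cadherin, the main cadherin of neural tissue, was detected in all 5 libraries. Its level was 2142 (B) and 1313 (G) CPM anteriorly and 759 (B), 1076 (G) and 1087 (R) CPM posteriorly. Both anterior libraries lay above all 3 posterior ones. The anterior mean was 1728 ± 587 CPM (SD, n = 2) and the posterior mean 974 ± 186 CPM (SD, n = 3). The log2 fold change was -0.82 ± 0.29 (SE), or 1.77-fold more in anterior cells. The edgeR quasi-likelihood test gave an unadjusted p of 0.0157 and an adjusted p of 0.726 over all 11827 genes tested. Without anterior B the log2 fold change was -0.43 (edgeR unadjusted p 0.168, adjusted p 0.922), and without posterior B it was -0.64 (edgeR unadjusted p 0.0749).

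R-cadherin, encoded by cdh4 (ENSDARG00000015002), is another type I cadherin of the nervous system. It had 52 counts (3.05 CPM) in anterior B and 902 counts (44.4 CPM) in anterior G, and 0 counts in posterior B, G and R. The anterior libraries lay above the posterior ones but differed from each other by far more than a library's counting error. The anterior mean, 23.7 ± 29.2 CPM (SD, n = 2), was at least 122.5-fold higher than the posterior limit of 3 counts per library; the anterior B value alone was about 15.8 times that limit. The edgeR unadjusted p was 0.0306 and the adjusted p 0.726, while DESeq2, which called 2.52% of the genes it tested, gave an adjusted p of 0.0213. Among all tested genes with a mean of 1 to 10 CPM over the 5 libraries, the class of cdh4, 36.6% of the values in single libraries were at or under 3 counts. The edgeR unadjusted p for cdh4 was 0.241 without anterior G, 0.0574 without posterior G and 0.0608 without posterior R.

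The cadherins that mark other tissues were at or near 0. E-cadherin, cdh1 (ENSDARG00000102750), the epithelial type I cadherin, had 1 count in anterior G, 1 in posterior B and 1 in posterior G. VE-cadherin (cdh5, ENSDARG00000075549) of endothelium, M-cadherin (CDH15, ENSDARG00000068191) of muscle and CDH17 (ENSDARG00000005112) of kidney tubules had 0 counts in every library. Of 7 other epithelial markers 3 were detected, with a summed level of 0 to 60.4 CPM per library and epcam, krt5 and cldnb at 0. Of 4 endothelial markers 2 were detected, with a summed level of 0 to 96.4 CPM, the highest in anterior B, where kdrl alone gave it. Other markers of muscle and kidney were not all at 0. Of 6 muscle markers 2 were detected, at 0.148 to 26.2 CPM in sum, and actc1b gave the highest value, in posterior R. All 7 kidney markers passed 3 counts in at least 1 library, with sums of 161 to 566 CPM, most of it in all 5 libraries from a single gene, SLC20A1 (ENSDARG00000010641). Neural crest and glia markers summed to 79.7 to 258 CPM, with 3 of 6 detected and SOX10, FOXD3 and mbpa at 0, and blood markers to 0.0524 to 6.33 CPM, with 1 of 5 detected.

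In all 3 tested type II cadherins the anterior and posterior libraries overlapped. The type II cadherin gene cdh6 (ENSDARG00000014522) was detected in all libraries, with 26.7 (B) and 194 (G) CPM anteriorly and 44.2 (B), 102 (G) and 219 (R) CPM posteriorly. Its highest and lowest posterior values enclosed the anterior G value, and the log2 fold change was 0.14 ± 0.79 (SE; edgeR adjusted p 0.987). CDH11 (ENSDARG00000021442), known from mesenchyme and brain, had 52.6 (B) and 134 (G) CPM anteriorly, and 0.0645 (B), 47.5 (G) and 81.4 (R) CPM posteriorly. Its groups overlapped, with 1 count in posterior B against 754 or more elsewhere (log2 fold change -1.09 ± 0.88, SE; edgeR adjusted p 0.800). CDH7 (ENSDARG00000023542), a type II cadherin of the developing neural tube and neural crest, had 16.7 and 29.5 CPM in the anterior libraries, 0 counts in posterior B and G and 29.2 CPM in posterior R (log2 fold change -1.11 ± 1.35, SE; edgeR adjusted p 0.890).

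The remaining cdh genes gave little signal. Of the 12 type II members, 6 had no count, and CDH22, cdh10a and cdh18a were each detected in a single library (101 counts in anterior G, 45 in posterior B and 324 in posterior G). Of the 11 other cdh genes, among them CDH13, CDH23 and cdh26.1, 10 had no count and cdh26.2 had 0 to 9 counts. Taken as a class, 5 cdh genes passed the expression filter, 4 of them lower and 1 higher posteriorly; the median log2 fold change was -1.09 against -0.055 for all tested genes. The filter keeps a gene with enough counts in as many libraries as the smaller group has, whichever group they come from. Here cdh4 passed through the anterior libraries alone. The 5 therefore do not stand for all 27 cdh genes.

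**Figure D2:**
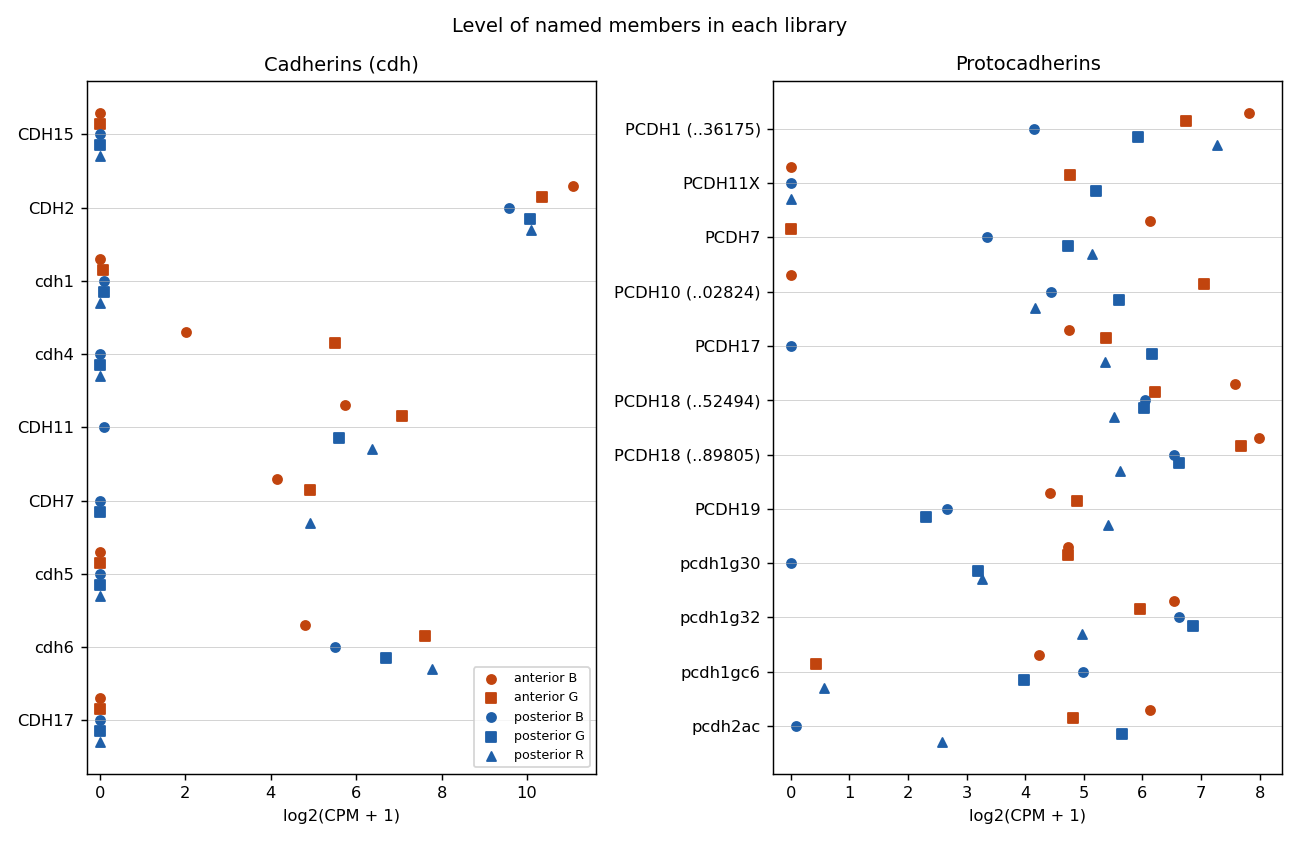
Level of the named cdh genes (left) and protocadherins (right) in each library as log2(CPM + 1), 1 symbol per library (red anterior, blue posterior; circle B, square G, triangle R). CDH2 and the PCDH18 genes have both red symbols to the right of all blue ones, cdh4 is at 0 in all 3 posterior libraries, and cdh1, cdh5, CDH15 and CDH17 sit at or near 0 throughout.

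Delta-2 protocadherins, solitary members whose tails bind the WAVE regulators of actin, included a pair whose groups did not overlap. PCDH18 is known in zebrafish for a part in motor axon branching, and it is present as 2 gene copies under the same symbol. The first (ENSDARG00000089805) had 253 (B) and 205 (G) CPM anteriorly and 92.3 (B), 97.9 (G) and 47.8 (R) CPM posteriorly. Its anterior libraries were both more than 2-fold above every posterior one. The means were 229 ± 34.1 CPM (SD, n = 2) and 79.3 ± 27.4 CPM (SD, n = 3). The log2 fold change was -1.55 ± 0.53 (SE), or 2.92-fold more in anterior cells. The edgeR unadjusted p was 0.0130 and the adjusted p 0.726. The edgeR unadjusted p was 0.0595 without anterior B and 0.0652 without posterior R.

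The second PCDH18 gene (ENSDARG00000052494) had 189.8 (B) and 73.4 (G) CPM anteriorly and 65.3 (B), 64.2 (G) and 44.8 (R) CPM posteriorly. The groups did not overlap here either, though anterior G was close to the posterior values. The log2 fold change was -1.17 ± 0.65 (SE; edgeR unadjusted p 0.0959, adjusted p 0.726). Without anterior B it was -0.35 (edgeR unadjusted p 0.679). The files do not say how reads from the shared parts of the 2 copies were divided, beyond the loss of reads that aligned to several places.

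The other delta-2 genes had wide spreads. PCDH17 (ENSDARG00000027041), known for a part in axon growth, had 26.0 (B) and 40.6 (G) CPM anteriorly, and 0 (B), 70.6 (G) and 40.2 (R) CPM posteriorly. PCDH19 (ENSDARG00000034344), which acts together with N-cadherin in zebrafish neurulation, had 20.3 and 28.7 CPM anteriorly against 5.35, 3.97 and 41.7 CPM posteriorly. PCDH10 (ENSDARG00000102824), known in mouse for axon growth in the forebrain, had 0 counts in anterior B, 131 CPM in anterior G and 20.8 (B), 47.5 (G) and 16.9 (R) CPM posteriorly. In each of these the range within a group covered the other group's mean (edgeR adjusted p 0.991, 0.964 and 0.813). A second PCDH10 (ENSDARG00000099729) was detected in posterior B and R alone, with 4 and 92 counts, and the PCDH8 gene ENSDARG00000102185 had 268 counts in posterior G and 1 to 6 counts elsewhere.

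Summed over the 8 delta-2 genes, the level was 490 (B) and 479 (G) CPM anteriorly, and 184 (B), 301 (G) and 196 (R) CPM posteriorly. The sums of the anterior libraries differed by little and both lay above those of all posterior libraries. Single genes differed more between anterior B and G. PCDH18 (ENSDARG00000052494) had 189.8 and 73.4 CPM there, and PCDH10 (ENSDARG00000102824) 0 and 131 CPM. The PCDH18 genes made up over 50% of the sum in every library but posterior R.

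Delta-1 protocadherins, which are also solitary, overlapped between groups. PCDH1 (ENSDARG00000036175) had 225 (B) and 106 (G) CPM anteriorly and 16.8 (B), 59.5 (G) and 153 (R) CPM posteriorly. Posterior R lay between the anterior libraries (log2 fold change -1.05 ± 0.72, SE; edgeR adjusted p 0.743). PCDH7 (ENSDARG00000060610), whose frog relative NF-protocadherin acts in retinal axon growth, had 68.7 CPM in anterior B, 0 in anterior G and 9.16 (B), 25.4 (G) and 34.1 (R) CPM posteriorly. PCDH11X (ENSDARG00000098652) was at 26.1 CPM in anterior G and 36.1 CPM in posterior G, with 0 counts in the other 3 libraries. The log2 fold change was -0.46 for PCDH7 and -0.29 for PCDH11X (edgeR adjusted p 0.964 and 0.988). Both genes were thus high in 1 anterior library and missing from the other.

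**Figure D3:**
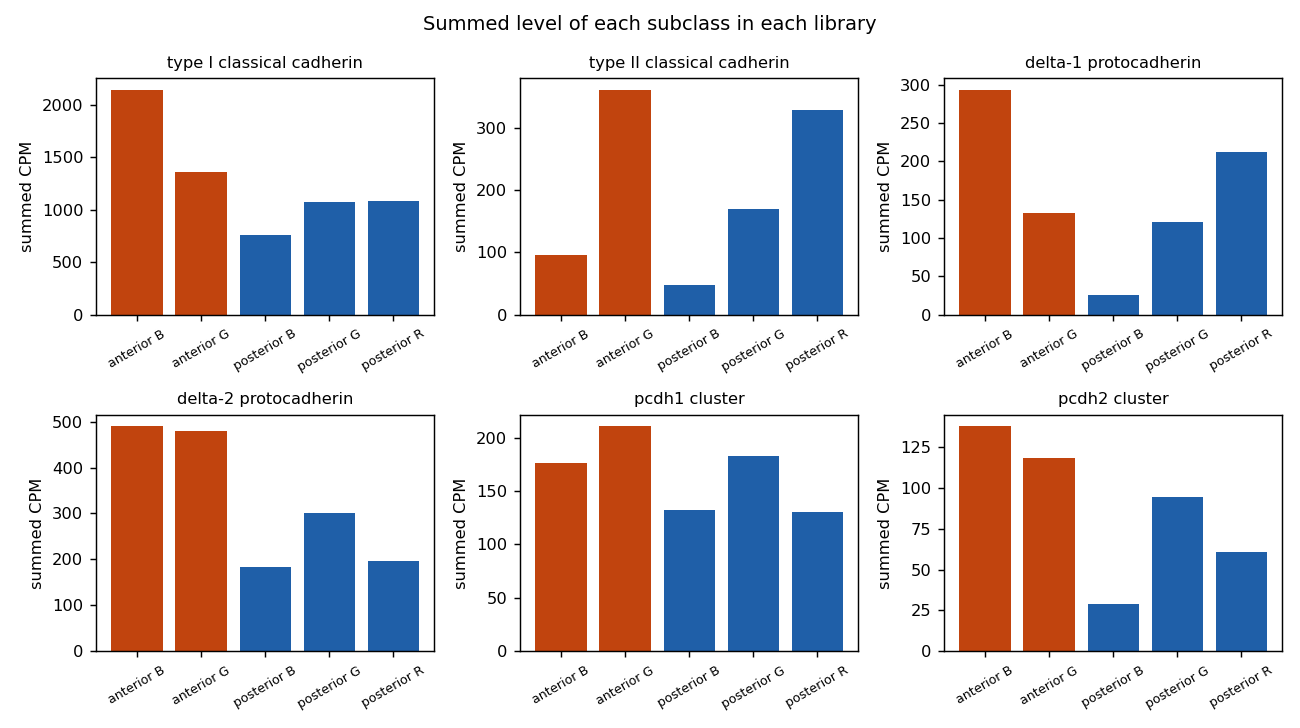
Summed CPM in each library of type I and type II cadherins, delta-1 and delta-2 protocadherins and the pcdh1 and pcdh2 clusters. Anterior libraries are red and posterior ones blue, and each panel has its own axis, starting at 0. Delta-2 protocadherins are at 490 and 479 CPM in the anterior libraries against 184 to 301 CPM in the posterior ones, while the type II cadherin bars of the groups overlap.

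The 37 clustered protocadherins fell into the pcdh1 cluster (21 genes) and the pcdh2 cluster (16 genes, with pcdha8l and pcdhb counted here). Each gene stands for a variable first exon joined to shared constant exons. Reads on sequence shared by overlapping genes are counted as ambiguous and lost (0.819% to 1.03% of all counted reads per library, over all genes), and reads that align to several near-identical exons are lost as well. The counts of single clustered genes are therefore uncertain. Even so, 25 (B) and 30 (G) of them had more than 3 counts in the anterior libraries, and 11 (B), 24 (G) and 24 (R) in the posterior ones.

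In the pcdh1 cluster pcdh1g32 (ENSDARG00000100829) was the gene with most reads in every library. It had 91.7 (B) and 61.4 (G) CPM anteriorly and 97.7 (B), 115 (G) and 30.2 (R) CPM posteriorly, and its groups overlapped (log2 fold change 0.07 ± 0.70, SE; edgeR adjusted p 0.994). The gene next in reads differed from library to library: pcdh1g30 (B) and pcdh1g29 (G) anteriorly, and pcdh1gc6 (B), pcdh1gb2 (G) and pcdh1gc5 (R) posteriorly. Their levels there were 25.7, 27.0, 30.8, 27.1 and 26.0 CPM.

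The same gene could be high in one library of a group and near 0 in the next. Values at or under 3 counts were also frequent among all tested genes of like level. Their share was 36.6% at a mean of 1 to 10 CPM and 20.9% at 10 to 30 CPM. The gene pcdh1gc6 (ENSDARG00000103950) had 17.8 (B) and 0.344 (G) CPM anteriorly, and 30.8 (B), 14.8 (G) and 0.472 (R) CPM posteriorly. Its neighbour pcdh1gc5 (ENSDARG00000104826) had 17.0 and 1.08 CPM anteriorly against 0.129, 0.252 and 26.0 CPM posteriorly. The 2 genes were both high in anterior B, and in the posterior libraries one was high where the other was low. By contrast pcdh1g30 (ENSDARG00000101865) had 25.7 (B) and 25.6 (G) CPM anteriorly against 0 (B), 8.19 (G) and 8.55 (R) CPM posteriorly. Its groups did not overlap (log2 fold change -2.15 ± 1.21, SE; edgeR unadjusted p 0.0956, adjusted p 0.726).

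The order of 17 of the 21 pcdh1 cluster genes along the chromosome could be read from the RefSeq gene table of assembly GRCz12tu, a later build than that of the counts. The first 6 in that order, pcdh1a3 to pcdh1g3, had at most 65 counts. Of these 6, pcdh1a3, pcdh1a4 and pcdh1a6 were detected in anterior G alone and pcdh1g1, pcdh1g2 and pcdh1g3 had no count. Each of the following 11 genes, from pcdh1gb2 to pcdh1g32, had more than 3 counts in 2 or more libraries.

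In the pcdh2 cluster the gene with most reads was not the same in every library. It was pcdh2ac in anterior B and posterior G, pcdh2g28 in anterior G, pcdh2ab12 in posterior B and pcdh2aa15 in posterior R. The C-type gene pcdh2ac (ENSDARG00000099783) had 68.9 and 27.2 CPM anteriorly against 0.0645, 49.2 and 4.98 CPM posteriorly (log2 fold change -1.42 ± 1.14, SE; edgeR adjusted p 0.797). Its groups overlapped through posterior G. The summed level of the pcdh2 cluster was 138 and 119 CPM anteriorly against 29.2, 94.3 and 60.8 CPM posteriorly, so that the groups did not overlap. For the pcdh1 cluster the sums, 177 and 211 CPM against 132, 183 and 130.2 CPM, overlapped.

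**Figure D4:**
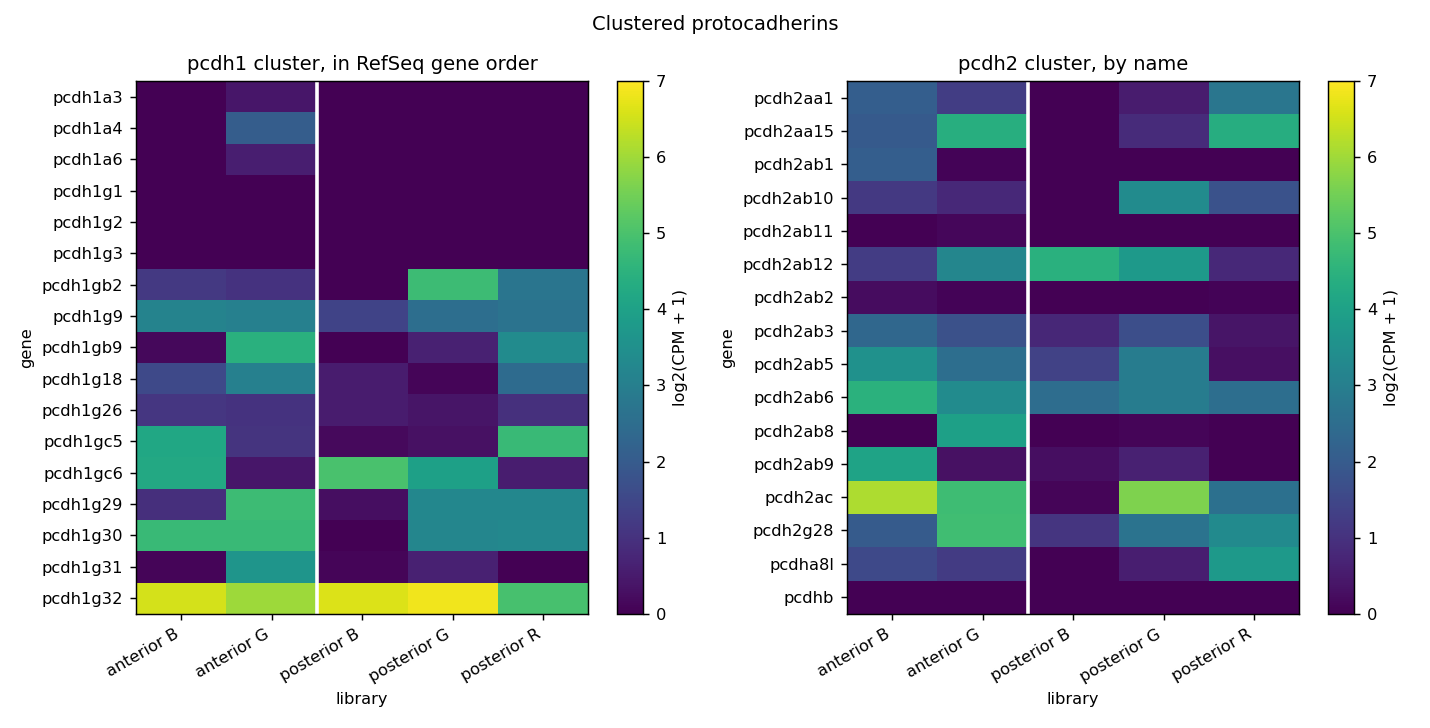
Level of clustered protocadherins as log2(CPM + 1) by colour, 1 column per library (anterior left of the white line, posterior right of it); left, the 17 pcdh1 cluster genes in RefSeq order, right, the 16 pcdh2 cluster genes by name. The pcdh1g32 row is bright in every column (30.2 to 115 CPM), the first 6 pcdh1 rows are dark outside anterior G, and most other rows are bright in some libraries and dark in others of the same group.

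Across the whole family the expression filter kept 38 of 84 members, 5 cdh genes and 33 protocadherins. The edgeR test called 0 of them at an adjusted p under 0.05, as it did 0% of the 11827 genes tested; the smallest adjusted p among members was 0.726. The unadjusted p was under 0.05 for 3 members (7.89%), CDH2, cdh4 and the PCDH18 gene ENSDARG00000089805, all higher in anterior cells. The background at that level was 6.49% of all tested genes in either direction, 4.21% higher in anterior and 2.28% higher in posterior cells. The members' share was thus near the background. With 0 counts in every posterior library, cdh4 passed the filter through its anterior counts alone. Its place among the 3 was therefore not independent of the filter.

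The direction of the differences was more uneven. Of the 38 tested members 27 (71.1%) had a negative log2 fold change, lower in posterior cells, where 52.1% of all tested genes did. The median log2 fold change was -0.89 for the 33 tested protocadherins and -0.055 for all tested genes. Both anterior libraries lay above all posterior libraries in 11 members (28.9%), against 12.3% of all tested genes. The reverse order was found in 0 members, against 9.57% of all tested genes. Besides CDH2, cdh4, pcdh1g30 and the PCDH18 genes, the 11 were pcdh1g9, pcdh1g14, pcdh1g26, pcdh1g33, pcdh2ab3 and pcdh2ab6, so that 7 of them belonged to the clusters and shared the read assignment of those loci. Of the 11, cdh4 and pcdh1g26 needed their anterior counts to pass the filter, so their order is not independent of it. Members that pass the filter are not a sample of all members, and these shares were not tested.

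The uneven direction was weaker when anterior G was left out. Without anterior G, and with genes filtered anew, 22 of 40 protocadherins were lower posteriorly, and the median log2 fold change was -0.19. With an anterior library left out, the smaller group had 1 library. A gene with enough counts in a single library of either group then passed the filter. The 40 are therefore not the same set as the 33 of the full fit. The part of the added genes in this shift was not tested. With another library left out, 29 of 43 (anterior B), 25 of 34 (posterior B), 23 of 32 (posterior G) and 24 of 31 (posterior R) were lower posteriorly. The matching share of all tested genes was not computed for these fits. Without posterior B the median was -0.74 and without posterior R -1.24. For cdh genes the median without anterior G was -0.24, over 7 genes tested in place of 5, so that this set changed with the filter as well. With anterior G left out, anterior B lay above all posterior libraries in 42.1% of the 38 members and in 29.0% of all tested genes. With posterior B left out the share was 31.6%, against 17.2% of all tested genes, and with posterior G left out 34.2%, against 18.5%. It was 52.6% against 27.5% without anterior B and 57.9% against 19.1% without posterior R. The reverse order was found in 2 members (5.26%) with anterior B, anterior G, posterior B or posterior R left out, against 14.2% to 22.7% of all tested genes, and in 0 without posterior G. Summed levels of pan-neuronal markers were 4050 and 5985 CPM in anterior B and G and 3608 to 4033 CPM in the posterior libraries, and those of progenitor markers were 6093 and 3494 CPM against 3898 to 4896 CPM. Of the 6 tested pan-neuronal markers 5 were lower and 1 higher posteriorly. Both STMN2 genes among them (ENSDARG00000033234 and ENSDARG00000070537) had an edgeR unadjusted p under 0.05, higher in anterior cells. They had 83.5 and 234 CPM in anterior B and 372 and 683 CPM in anterior G. Their posterior levels were 26.4 to 93.1 and 206 to 233 CPM, so that anterior B lay within or close to the posterior range. Of the 9 tested progenitor markers 5 were higher and 4 lower posteriorly. PCNA among them was higher in posterior cells, with no overlap (edgeR unadjusted p 0.0494), while mki67 had a log2 fold change of -0.26. Of 8 tested motor neuron markers 4 were lower and 4 higher posteriorly. MNX1, among the higher, had 0 counts in both anterior libraries. It passed the expression filter through its posterior counts alone, so this split is not independent of the filter. Among the 8, PHOX2A (ENSDARG00000007406) was the 1 with an unadjusted p under 0.05. The log2 fold change of PHOX2A was 2.02 (edgeR unadjusted p 0.0384). It had 84.4 (B) and 219 (G) CPM anteriorly against 1456 (B), 106 (G) and 308 (R) CPM posteriorly, and its groups overlapped. Of the 7 kidney markers, 2 were detected in anterior libraries alone and 3, none of them tested, in posterior libraries alone. Of the kidney markers 3 were tested, and the median of their log2 fold changes, all negative, was -3.26. Among these, PAX2 (ENSDARG00000028148) had 0.0586 and 132 CPM anteriorly against 0, 22.6 and 0 CPM posteriorly (edgeR unadjusted p 0.0434). WT1 (ENSDARG00000031420) had 3.87 and 6.44 CPM against 0 in all posterior libraries (edgeR unadjusted p 0.0378). It passed the expression filter through its anterior counts alone, so its p and its part in the median are not independent of the filter. All 6 of 6 pan-neuronal genes and 9 of 10 progenitor genes were detected. The part of these markers in the members' levels was not tested.

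**Figure D5:**
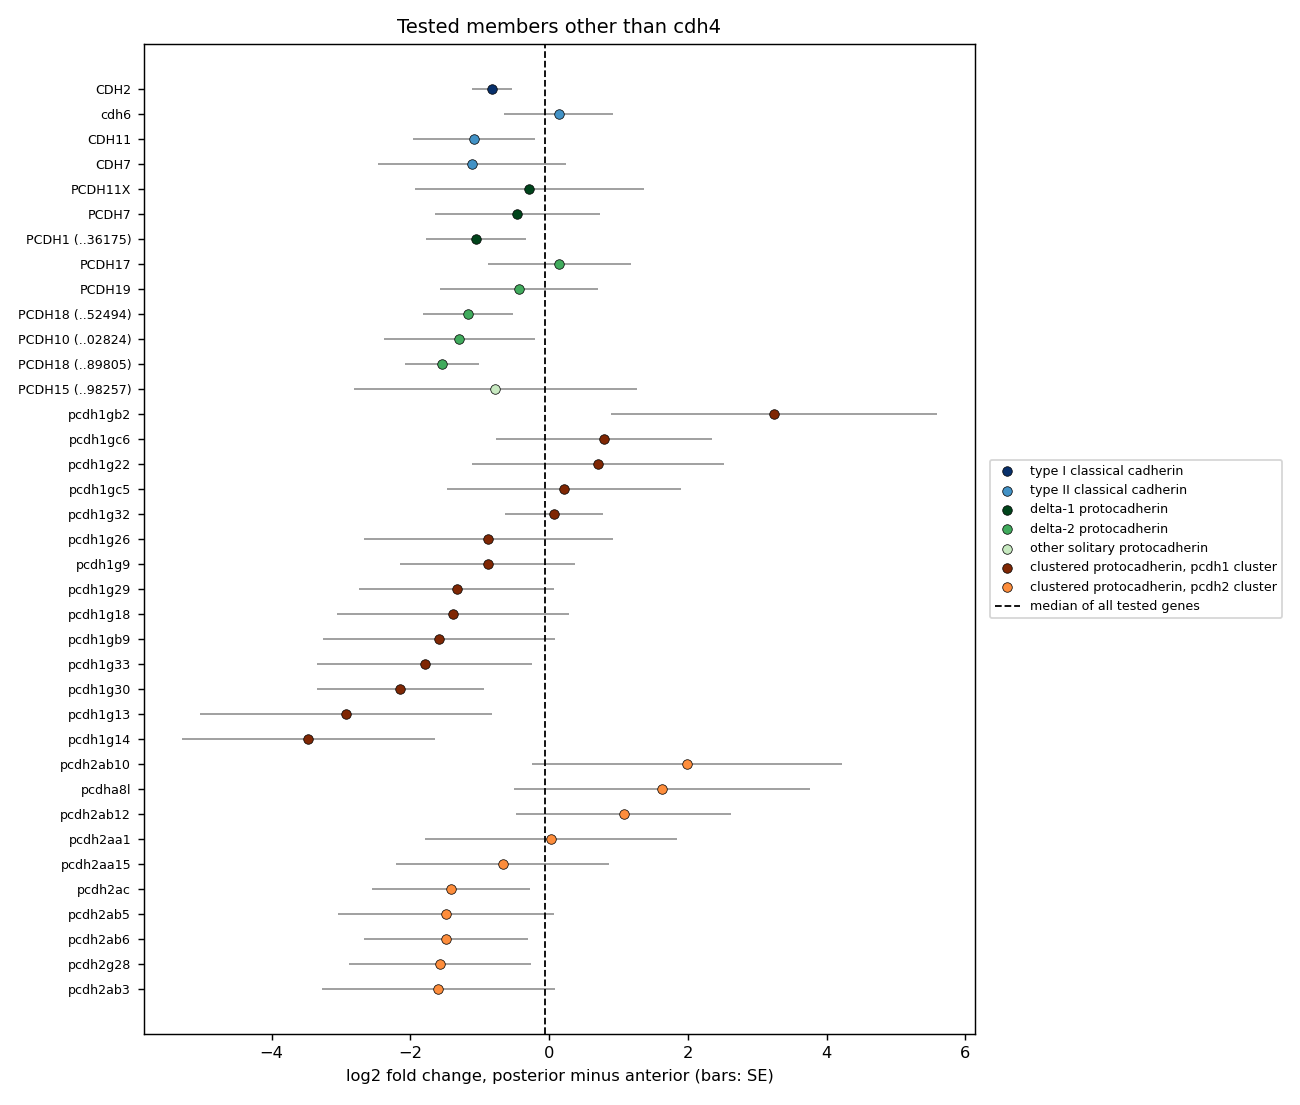
Log2 fold change (posterior minus anterior; bars, SE) of the 37 tested members other than cdh4, which has 0 counts in every posterior library, grouped by subclass; the dashed line is the median of all tested genes, -0.055. CDH2 and the PCDH18 genes lie to the left with narrow bars, and the clustered protocadherins spread to both sides with wide bars.

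Spread within a group was close to that of all tested genes for low members and larger for several of the higher ones. At a mean of 1 to 10 CPM, the class of 20 of the 38 tested members, the median coefficient of variation over the 3 posterior libraries was 1.24 for members and 1.22 for 3302 tested genes, and 17.0% of the members' values were at or under 3 counts against 36.6%. At 10 to 30 CPM, with 6 members, it was 1.12 against 0.923, and 23.3% of values were at or under 3 counts against 20.9%. At a mean of 30 to 100 CPM the median coefficient of variation was 0.769 for 6 members and 0.554 for 2905 tested genes. At 100 to 300 CPM it was 0.730 for 3 members and 0.321 for 1523 tested genes. CDH2, at over 300 CPM, had 0.191 against 0.203 for 599 genes. In the class of 30 to 100 CPM, 13.3% of the members' values were at or under 3 counts against 5.35% for all tested genes. The members here are few, and these values are a description.

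The catenins, which tie classical cadherins to actin, were evenly divided in direction. Of 17 catenin and plakophilin genes 10 were tested, 5 lower and 5 higher posteriorly; the median log2 fold change was -0.06, and none had an unadjusted p under 0.05 in the edgeR test. Beta-catenin (CTNNB1, ENSDARG00000014571) had 601 and 535 CPM anteriorly against 461, 665 and 767 CPM posteriorly (log2 fold change 0.16 ± 0.34, SE; edgeR adjusted p 0.956). Plakoglobin (JUP, ENSDARG00000070787), which can stand in for beta-catenin, had 163 and 112 CPM anteriorly against 204, 189 and 174 CPM posteriorly, with no overlap (log2 fold change 0.46 ± 0.48, SE; edgeR adjusted p 0.867). ARVCF (ENSDARG00000061688), of the p120 family that keeps cadherins at the membrane, had 76.8 and 176 CPM anteriorly against 6.32, 39.5 and 75.9 CPM posteriorly (log2 fold change -1.60 ± 0.77, SE, edgeR adjusted p 0.726). Its groups did not overlap either, in the other direction, though anterior B was close to posterior R.

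The alpha-catenins were detected in most libraries with wide spreads. The neural alpha-catenin CTNNA2 (ENSDARG00000024785) had 44.3 and 124 CPM anteriorly against 15.6, 50.5 and 71.0 CPM posteriorly, and ctnna1 (ENSDARG00000102441) had 0 and 83.2 CPM against 4.90, 44.8 and 158 CPM. Their log2 fold changes were -0.88 and 0.72. The p120-catenin gene CTNND1 (ENSDARG00000078233) had a log2 fold change of 0.40, ctnnd2b (ENSDARG00000003779) 0.57, CTNND2 (ENSDARG00000062415) -1.26, ctnnb2 (ENSDARG00000023472) -0.28 and the plakophilin PKP3 (ENSDARG00000079438) -0.55. In these 5 genes and both alpha-catenins the groups overlapped.

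Other adhesion partners were counted as lists. Of 7 nectin and afadin genes 4 were tested, 2 in each direction. Nectin3b (ENSDARG00000006604), an immunoglobulin adhesion protein that recruits cadherins to contacts, had 89.8 and 16.0 CPM anteriorly against 0, 13.4 and 1.31 CPM posteriorly. Its groups did not overlap (log2 fold change -3.43 ± 1.33, SE; edgeR unadjusted p 0.0207, adjusted p 0.726). Of 22 other members of the cadherin superfamily (Celsr, Fat, Dachsous, calsyntenins and others) 11 were tested, 9 lower (81.8%) and 2 higher posteriorly. Of all tested genes 52.1% were lower posteriorly. The median log2 fold change was -0.76 for this list and -0.055 for all tested genes. The groups overlapped in all 11. Among all tested genes they did not overlap in 12.3% with anterior higher and in 9.57% with posterior higher. The share of this list was not tested. Of 20 WAVE complex and protocadherin signalling genes 12 were tested, 6 in each direction. The cadherin proteases gave 2 lower and 1 higher of 3 tested, and the Snail, Twist and Zeb repressors of cadherin genes 2 in each direction of 4 tested. Apart from nectin3b, 0 genes of these lists or the catenin list had an unadjusted p under 0.05 in the edgeR test, where 6.49% of all tested genes did.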

How the data were processed

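RNA from 100 hand-picked cells per library was amplified with SMART-Seq v4 and made into Nextera XT libraries, per the labels' protocols. The authors deposited raw counts of reads for each Ensembl gene, with a file for every library and no normalisation. The submitters' processing notes name GRCz10, TopHat2 2.1.0 and HTSeq 0.6.1, without order; the gene annotation and whether strand was used are not given in the sources used here. Reads in no gene, ambiguous reads and reads aligned to several places stay outside the gene counts, and genes took 69.0% to 72.5% of the reads counted. The files hold no molecular identifiers.

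Counts were tested with edgeR 4.0.16 in R 4.3.3 (filterByExpr with minimum count 10 and minimum total 15, TMM factors, estimateDisp, glmQLFit with legacy off, glmQLFTest; two-sided, Benjamini-Hochberg adjustment over all tested genes, threshold 0.05). The fit used all 5 libraries, with log2 fold changes given as posterior minus anterior. Each SE is the log2 fold change divided by the square root of the F statistic. Replicate letters come from the sample titles, and the labels do not say what they mean. Alternatives were RLE factors, library totals, other filters, DESeq2 1.42.0, limma-voom (limma 3.58.1), the replicate block, the legacy glmQLFit (chosen after seeing the data) and each library left out. Symbols came from a table that pairs them with 26121 of 31953 identifiers; some stand in capitals and are shared by 2 genes. Members and lists were chosen with earlier results of these data known. Named are tested members with a mean of at least 10 CPM, members with an unadjusted p under 0.05, 5 marker cadherins, tested catenins, and other list genes with an unadjusted p under 0.05; further members, given where a count is spelled out or a cluster described, were chosen after their values were seen. Subclasses were assigned by symbol.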

Additional observations from a re-analysis of the deposited data

How the results depend on the processing

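Genes past the adjusted threshold of 0.05 numbered 0 in the edgeR fit and 252 with DESeq2, which called 1 cdh gene (cdh4) and 0 protocadherins. With each library left out in turn they numbered 0 to 7, and 0 for members. The unadjusted p was under 0.05 for 768 genes, for 211 with the replicate block over 4 libraries, and for 502 to 1009 with each library left out. The letters share no stated origin. Deviations from the group mean correlated at -0.0019 for letter B and 0.0063 for letter G. With 2 anterior libraries the anterior deviations mirror each other, so these values are not separate checks of the letters. The block called 0 members and 0 genes in all, as did the fit without it. With the block the edgeR unadjusted p was 0.114 for CDH2, 0.132 for cdh4 and 0.0885 for PCDH18 ENSDARG00000089805.

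Median log2 fold changes stayed negative in all 14 alternatives, from -3.38 to -0.24 for cdh genes and from -1.44 to -0.19 for protocadherins. Of 237 log2 fold changes of 17 named members under an alternative, 213 kept their sign, and 9 members kept it throughout, among them CDH2, cdh4 and the PCDH18 genes. The sign changed with the replicate block for cdh6 (-0.28), PCDH11X (0.51) and PCDH17 (-0.23), with the same 4 libraries and no block for cdh6 (-0.59) and PCDH11X (0.42), and with limma-voom for pcdh1g32 (-0.16), PCDH7 (4.06), PCDH10 (3.58) and PCDH17 (-2.77). With a library left out the lowest and highest values were -0.64 and 2.21 for cdh6, -0.28 and 0.51 for pcdh1g32, -0.31 and 5.36 for pcdh1gc6, -1.19 and 10.59 for PCDH11X, -1.55 and 11.70 for PCDH7, -2.23 and 11.88 for PCDH10, -0.64 and 0.73 for PCDH17, and -2.39 and 0.0083 for PCDH19. The cause was not tested; the values above 10 set groups against a lone anterior library with 0 counts. Detection in at least 1 library covered 56 members, 59 at a limit of 1 count and 54 at 10 counts. A count of 3, at 0.148 to 0.193 CPM, was the detection limit and covers counting error only. Among all tested genes with a mean of 10 to 30 CPM, 20.9% of the values in single libraries were at or under it.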

Other observations

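Several members were plainly present in a single library and absent from the others, in both groups. The delta-1 protocadherin gene pcdh9 had 377 counts in posterior R and 0 in the other 4 libraries, and cdh18a had 324 counts in posterior G and 0 in the others. Of the genes named for the hair cell tip-link protein protocadherin 15, PCDH15 (ENSDARG00000008127) had 271 counts and pcdh15b 185 counts in anterior G, each with 0 elsewhere, while a further PCDH15 (ENSDARG00000098257) had 4 to 15 counts in all 5 libraries. Of the 56 members detected, 12 (21.4%) were over 3 counts in exactly 1 library, against 3209 of 16088 detected genes (19.9%), so that this share was near the background.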
